A study of Mus musculus with 6 samples.

Results

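A group of 9 transcription factors that direct hematopoietic progenitors into the myeloid lineages was followed in LSK cells of mice with a conditional deletion of *Myh9*: *Spi1*, *Cebpa*, *Cebpb*, *Cebpd*, *Cebpe*, *Gfi1*, *Irf8*, *Irf5* and *Zeb2*. They were taken by gene name from the 54532 genes of the deposited table, and all 9 were found there, each on 1 row. LSK cells are the lineage-negative, Sca1-positive and c-Kit-positive fraction of BM, which holds hematopoietic stem cells and multipotent progenitors. Control libraries (CTRL) came from Myh9fl/fl;no cre mice and *Myh9*-deficient libraries (cKO) from Myh9fl/fl;Mx1-cre littermates, 3 libraries in each group and 100000 sorted LSK cells in each library. All mice were C57BL/6, carried the floxed allele, were genotyped at 4 to 5 weeks of age and received poly I:C, a double-stranded RNA mimic that induces type I interferon, at 5 mg/kg in 2 doses per the labels. Cells were sorted 4 days after the first dose. Cre was driven by the interferon-inducible *Mx1* promoter, which is not restricted to blood cells. The paper describes 3 independent sets of LSK cells, but the number of mice behind each library is not given in the labels. P-values therefore measure the spread between these libraries, which may be technical.

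Myeloid fate is set by a small circuit of such factors. PU.1, the ETS protein encoded by *Spi1*, and C/EBPα, encoded by *Cebpa*, open the myeloid program in multipotent progenitors and act against the erythroid factor GATA1. Downstream, IRF8 favors monocytes and dendritic cells over neutrophils, GFI1 and C/EBPε favor neutrophils, C/EBPβ and C/EBPδ act in emergency granulopoiesis and in inflammatory responses, IRF5 acts in macrophage polarization, and ZEB2 is a repressor active in monocyte, dendritic cell and early progenitor differentiation. Many of these factors bind the promoters or enhancers of each other, and PU.1 and IRF8 bind DNA as a pair.

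The promoters of *Irf8*, *Zeb2* and *Irf5* are shown because *Irf8* fell most, *Zeb2* also fell and *Irf5* did not pass the test. Each is the 250 bases before a RefSeq start site on the gene's strand, in GRCm38.p6, and for *Zeb2*, with 4 promoters listed, and *Irf8*, with 2, the one shown lies farthest upstream. Capitals mark matches, on either strand, to the ETS core bound by PU.1 (GAGGAA), the C/EBP consensus (TTNNGNAA), the GFI1 core (AATC, read GATT on the other strand) and the interferon response element (a pair of GAAA runs 2 bases apart).
Irf8, chr8:120736108-120736357, plus strand: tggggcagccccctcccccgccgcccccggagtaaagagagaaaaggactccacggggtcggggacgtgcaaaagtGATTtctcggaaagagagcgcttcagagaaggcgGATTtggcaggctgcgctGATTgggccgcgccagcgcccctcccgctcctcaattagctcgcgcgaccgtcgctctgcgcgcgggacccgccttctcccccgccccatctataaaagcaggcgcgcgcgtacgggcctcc
Zeb2, chr2:45117443-45117692, minus strand: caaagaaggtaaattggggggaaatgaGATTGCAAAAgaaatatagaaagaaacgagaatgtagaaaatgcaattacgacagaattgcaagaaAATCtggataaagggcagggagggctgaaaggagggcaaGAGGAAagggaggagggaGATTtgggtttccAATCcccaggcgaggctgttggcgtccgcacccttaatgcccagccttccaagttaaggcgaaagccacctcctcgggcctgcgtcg
Irf5, chr6:29526375-29526624, plus strand: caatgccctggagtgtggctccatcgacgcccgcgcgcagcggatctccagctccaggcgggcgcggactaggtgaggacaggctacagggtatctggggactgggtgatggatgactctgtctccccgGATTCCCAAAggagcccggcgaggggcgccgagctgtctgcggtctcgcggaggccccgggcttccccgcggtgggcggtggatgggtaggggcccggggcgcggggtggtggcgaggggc

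The *Irf8* window held 3 GFI1 cores and none of the other motifs, and its listed promoter windows of 300 bases, which also take in the 50 bases after the start, held no match to the interferon response element either. The *Zeb2* window held 4 GFI1 cores, a C/EBP match that overlaps the first of them by 2 bases and 1 ETS core. All 4 listed *Zeb2* promoters held an ETS core, and the one shown was the only one with a C/EBP match. Those at chr2:45113230-45113529 and chr2:45113204-45113503 overlap and hold the same ETS core. In *Irf5*, a C/EBP match overlapped the only GFI1 core by 2 bases. Promoters were listed for 6 of the 9 factors, *Cebpa*, *Cebpb*, *Gfi1*, *Irf8*, *Irf5* and *Zeb2*. Of these 6 genes, 1 had an ETS core, 3 a C/EBP match, 4 a GFI1 core and 0 an interferon response element in a listed promoter. Counted per promoter, of 11 listed for them, these numbers were 4 (all of *Zeb2*), 3, 7 and 0. Over all 32851 listed promoters of the same length, the shares with at least 1 match were 28.3%, 40.7%, 73.1% and 3.44%, respectively. A match of letters is a description of the sequence and not a bound site.

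Expression is given as FPKM, which divides the fragments of a gene by its length and by the depth of the library. The length used for each of the 9 factors was that of all its annotated exons merged, so ranks between genes depend on it. All 9 factors were expressed in LSK cells, and all 9 passed the filter on low values (mean FPKM of 1 or more). In *Myh9*-deficient LSKs, 8 of the 9 were lower than in control LSKs and 0 were higher at an adjusted p under 0.05 (limma's moderated test on log2(FPKM + 1), two-sided, Benjamini-Hochberg adjustment over 11552 genes). Over all genes tested, 20.6% were called lower and 19.9% higher at this threshold, 40.5% in either direction. In the same 8 factors, every *Myh9*-deficient library lay below every control library, against 28.5% of all genes tested. A further 25.5% of all genes lay wholly above the controls, which makes 54% without overlap in either direction. The median log2 fold change of the 9 was -0.39 and that of all genes tested -0.0096. Genes that the table assigns to a transcription factor family numbered 686 among those tested, of which 31.5% were called lower and 7% higher (median -0.11). Of the 9, only *Irf8* changed by more than 2-fold with an unadjusted p under 0.05, thresholds that 0.701% of all genes tested and 1.17% of these transcription factor genes passed towards lower values and 1.43% of all genes tested towards higher values. In bulk RNA, fewer cells of a type and less RNA per cell cannot be told apart, which holds for each factor below.

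**Figure D1:**
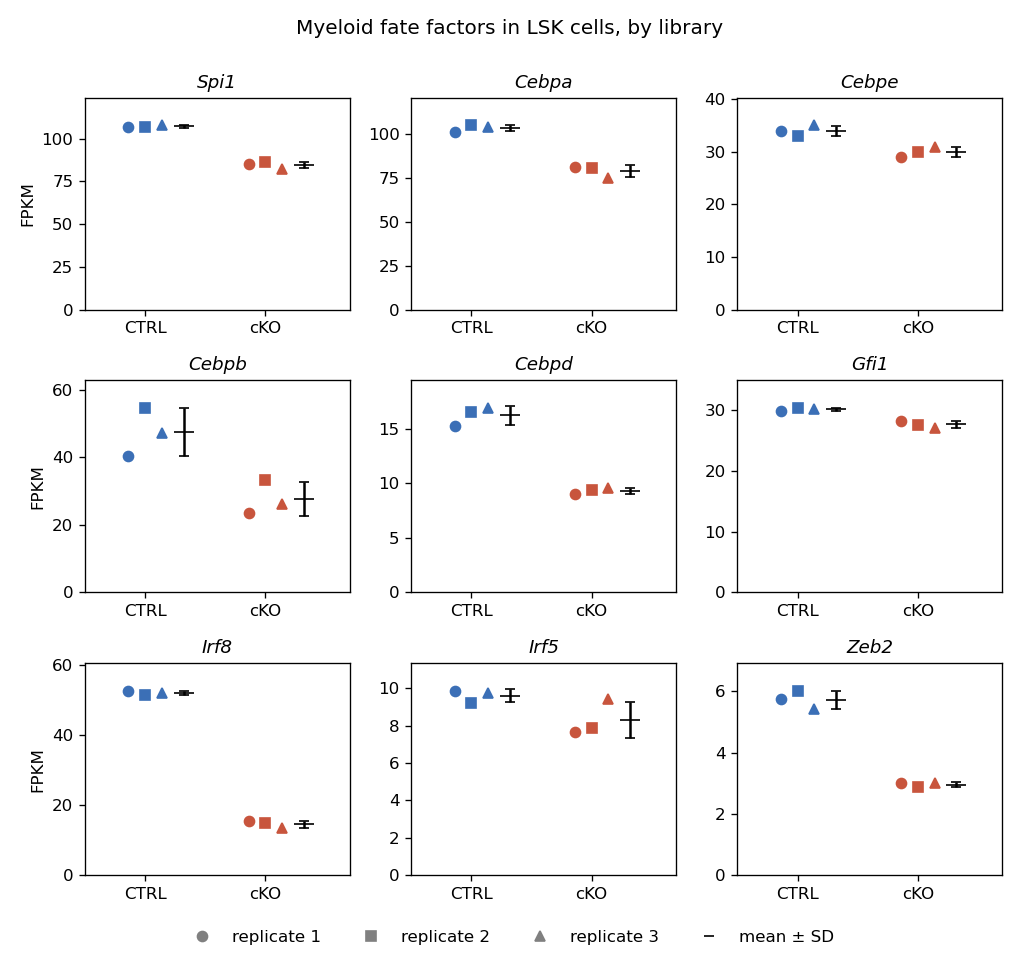
FPKM of the 9 factors in each library (points, one shape for each replicate number) with the mean and SD of 3 libraries per group, each panel starting at 0. The *Myh9*-deficient (cKO) libraries lie below all control (CTRL) libraries in every panel but *Irf5*, where cKO replicate 3, at 9.43 FPKM, lies above CTRL replicate 2, at 9.22 FPKM.

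Libraries held 17571544 to 19894562 reads on genes, recovered from FPKM and gene length, and mitochondrial genes took 1.71% to 1.82% of them. Pearson correlations across genes were 0.991 to 0.993 within a group and 0.974 to 0.977 between groups, and no library stood apart from its group. *Myh9* itself measured 22.5 ± 0.495 FPKM in CTRL and 18.7 ± 1.18 FPKM in *Myh9*-deficient LSKs (SD, n = 3 each), with no overlap between the groups (log2 fold change -0.26, limma, adjusted p = 0.00642). After correction for GC content and gene length the log2 fold change of *Myh9* was -0.16 (limma, adjusted p = 0.0225). The gene's value sums over all of its exons, so it does not show how much of the floxed exon was lost. Of the genes behind the LSK gate, *Kit* fell slightly, from 23.9 to 21.5 FPKM (limma, adjusted p = 0.0105), and *Ly6a*, which encodes Sca1, was at 95.4 and 89.5 FPKM and did not pass the test (limma, adjusted p = 0.0833). *Flt3*, a receptor of multipotent and lymphoid-primed progenitors, rose from 19.8 to 30.1 FPKM. The list of 5 LSK genes also held *Cd34*, *Flt3* and *Cd48*, which are not part of the LSK gate. Of these 5, 1 was called lower and 1 higher. With quantile normalization or TPM, 2 were called lower. With voom or with GC and length trends removed, 2 were called higher.

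*Irf8* (ENSMUSG00000041515) showed the largest change of the 9. It lies on the plus strand of chromosome 8, from 120736358 to 120756694 (mm10), and its principal transcript has 9 exons. Control libraries measured 52.7, 51.5 and 52.1 FPKM and *Myh9*-deficient libraries 15.4, 14.8 and 13.3 FPKM. The highest *Myh9*-deficient library was 36.1 FPKM below the lowest control library, while the libraries of one group spread by an SD of 0.553 and 1.07 FPKM. The mean fell by 72.1%, a log2 fold change of -1.78 with a 95% confidence interval from -1.90 to -1.65 (limma, adjusted p = 3.8e-06). By log2 fold change, *Irf8* was number 15 from the most negative among the 11552 genes tested and number 3 among the 686 transcription factor genes. These values rest on 6409 to 7387 recovered reads in each control library and 1751 to 2036 in each *Myh9*-deficient library.

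*Irf5* (ENSMUSG00000029771, chromosome 6 from 29526625 to 29541871, plus strand, 9 exons), the other interferon regulatory factor among the 9, did not pass the test. It measured 9.87, 9.22 and 9.74 FPKM in CTRL and 7.65, 7.85 and 9.43 FPKM in *Myh9*-deficient libraries. cKO replicates 1 and 2 lay below all controls and cKO replicate 3 lay within their range. The log2 fold change was -0.19 with a 95% confidence interval from -0.38 to -0.0099 (limma, adjusted p = 0.0879). Without cKO replicate 3 it was -0.28, with an adjusted p of 0.00952. The log2 ratio of *Irf8* to *Irf5* was 2.32 ± 0.0335 in CTRL and 0.740 ± 0.248 in *Myh9*-deficient LSKs (SD, n = 3 each), so *Irf8* fell by 1.58 on the log2 scale relative to *Irf5* (exact permutation test, two-sided, p = 0.1, the smallest that 3 libraries against 3 allow, and 0.117 adjusted over the 7 ratios tested).

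*Spi1* (ENSMUSG00000002111, chromosome 2 from 91082390 to 91115756, plus strand, 5 exons), the gene of PU.1, had the highest FPKM of the 9 in every library. It measured 107, 107 and 108 FPKM in CTRL and 85.3, 86.2 and 82.4 FPKM in *Myh9*-deficient libraries. The groups were separated by 20.5 FPKM, where the SD within a group was 0.629 and 2.0 FPKM. The mean fell by 21.1% (log2 fold change -0.34 with a standard error (SE) of 0.026, limma, adjusted p = 1.8e-04).

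The 4 genes of the C/EBP family fell to different degrees. C/EBP proteins are basic leucine zipper factors that pair with each other and bind the same DNA motif. *Cebpa* (ENSMUSG00000034957), on the plus strand of chromosome 7 from 35119293 to 35121928 and made of 1 exon, was number 2 by FPKM in all 6 libraries. Its values were 101, 105 and 104 FPKM in CTRL and 81.6, 80.6 and 75.0 FPKM in *Myh9*-deficient libraries. The groups did not overlap, and the mean fell by 23.7% (log2 fold change -0.39, 95% confidence interval from -0.48 to -0.30, limma, adjusted p = 4.6e-04).

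*Cebpb* (ENSMUSG00000056501, chromosome 2 from 167688915 to 167690418, plus strand, 1 exon) varied most between replicates. Control libraries measured 40.4, 54.6 and 47.1 FPKM and *Myh9*-deficient libraries 23.6, 33.3 and 26.3 FPKM. In spite of this spread, the lowest control library was 7.13 FPKM above the highest *Myh9*-deficient library. The mean fell by 41.5% (log2 fold change -0.76, SE 0.15, limma, adjusted p = 0.00734). *Cebpd* (ENSMUSG00000071637, chromosome 16 from 15887286 to 15891031, plus strand, 1 exon) fell by a similar size with less spread, from 15.2, 16.5 and 16.9 FPKM to 9.01, 9.40 and 9.53 FPKM. Its log2 fold change was -0.74 with a standard error of 0.049 (limma, adjusted p = 8.7e-05).

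*Cebpe* (ENSMUSG00000052435, chromosome 14 from 54710360 to 54712174, minus strand, 2 exons), which acts late in granulocyte maturation, changed least of the 4. Control libraries measured 33.8, 33.0 and 35.0 FPKM and *Myh9*-deficient libraries 29.0, 29.9 and 30.8 FPKM. These groups were separated by 2.23 FPKM, and the mean fell by 12.02% (log2 fold change -0.18, SE 0.036, limma, adjusted p = 0.00872). After correction of every library for GC content and gene length, the log2 fold change of *Cebpe* was -0.30, a shift of over 1.5 times. Relative to *Cebpa*, *Cebpe* was higher in the *Myh9*-deficient libraries: the log2 ratio of *Cebpe* to *Cebpa* was -1.58 ± 0.0526 in CTRL and -1.37 ± 0.106 in *Myh9*-deficient LSKs (SD, n = 3 each), a difference of 0.21 (exact permutation p = 0.1). The log2 ratio of *Cebpb* to *Cebpa* differed by -0.37 with overlapping libraries (exact permutation p = 0.2), and by -0.24 without cKO replicate 1.

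*Gfi1* (ENSMUSG00000029275, chromosome 5 from 107716657 to 107726036, minus strand, 7 exons), a zinc finger repressor that favors neutrophils and restrains stem cell cycling, changed least of the 9. It measured 29.9, 30.4 and 30.3 FPKM in CTRL and 28.2, 27.7 and 27.2 FPKM in *Myh9*-deficient libraries. The groups did not overlap, but they were only 1.702 FPKM apart, and the mean fell by 8.32% (log2 fold change -0.12, 95% confidence interval from -0.19 to -0.054, limma, adjusted p = 0.0151). Without CTRL replicate 2 the adjusted p was 0.0523.

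*Zeb2* (ENSMUSG00000026872, chromosome 2 from 44983632 to 45117395, minus strand, 11 exons) had the lowest FPKM of the 9, with 19942 bases of merged exons. Control libraries measured 5.74, 6.02 and 5.42 FPKM and *Myh9*-deficient libraries 3.01, 2.86 and 2.996 FPKM. The lowest control library was 2.40 FPKM above the highest *Myh9*-deficient library, and the mean fell by 48.3%. The log2 fold change was -0.76 on the log2(FPKM + 1) scale (95% confidence interval from -0.89 to -0.64, limma, adjusted p = 1.1e-04) and -0.93 with voom on 1041 to 2276 recovered reads per library, since a pseudocount of 1 shrinks the change of a low gene.

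**Figure D2:**
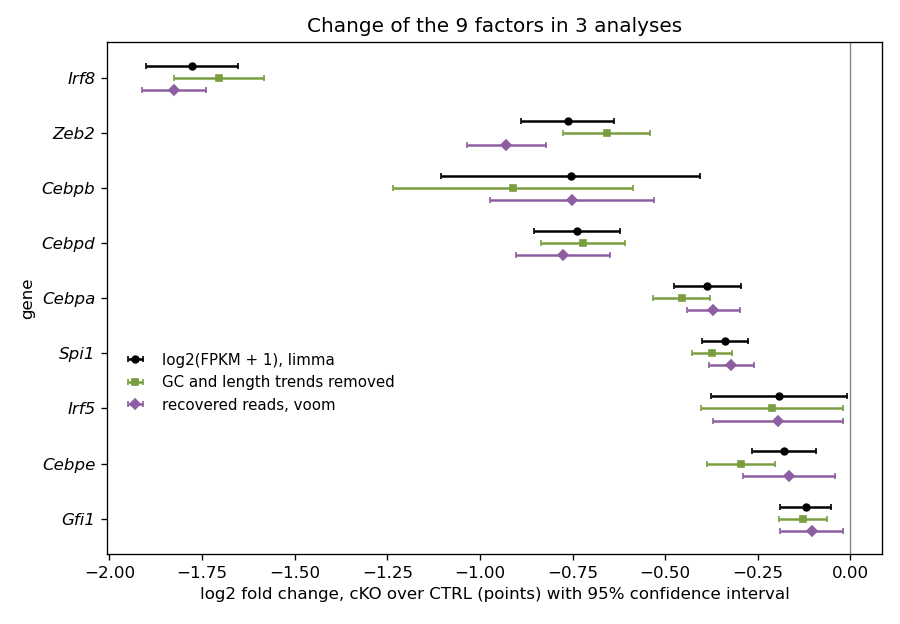
Log2 fold change of each factor, *Myh9*-deficient over control, with its 95% confidence interval from 3 analyses: limma on log2(FPKM + 1), the same after correction of every library for GC content and gene length, and voom on recovered reads. *Irf8* lies farthest from 0 in all 3 analyses and *Gfi1* closest to 0, from -0.13 to -0.10.

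Some of these genes share exonic bases with a gene on the other strand, and whether reads were counted by strand is not given in the sources used here. *Tmem189* covers 20.7% of the exonic bases of *Cebpb*, *Spidr* 15% of those of *Cebpd* and *Tnpo3* 14.1% of those of *Irf5*. *Tmem189* (8.21 and 8.24 FPKM in CTRL and cKO LSKs) and *Tnpo3* (6.15 and 6.20 FPKM) did not pass the test, while *Spidr* fell from 4.88 to 3.19 FPKM (limma, adjusted p = 0.00155). *Zeb2os*, antisense to *Zeb2*, covers 653 of its 19942 exonic bases and fell from 1.93 to 0.884 FPKM. *Spi1*, *Cebpe* and *Irf8* share no exonic base with another annotated gene.

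The unequal changes altered the order of the factors by FPKM. By recovered reads the order differed: *Irf8* had more reads than *Spi1* in every control library (6409 to 7387 against 5082 to 5719). In control libraries, the order by mean FPKM was *Spi1*, *Cebpa*, *Irf8*, *Cebpb*, *Cebpe*, *Gfi1*, *Cebpd*, *Irf5* and *Zeb2*, and *Irf8* and *Cebpb* overlapped, whereas all other neighbours in this order were separated. In *Myh9*-deficient libraries, the order was *Spi1*, *Cebpa*, *Cebpe*, *Cebpb*, *Gfi1*, *Irf8*, *Cebpd*, *Irf5* and *Zeb2*. Here *Cebpb* overlapped with *Cebpe* and with *Gfi1*, and *Cebpd* with *Irf5*. *Irf8* was thus number 3 or 4 of the 9 in every control library and number 6 in every *Myh9*-deficient library. Summed over the 9 genes, FPKM was 396 to 413 in CTRL and 277 to 292 in cKO libraries.

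Ratios between factors that act at the same branch point were compared in each library. By FPKM, *Irf8* exceeded *Gfi1* in CTRL and was below it in cKO LSKs: the log2 ratio was 0.794, 0.743 and 0.763 in CTRL and -0.834, -0.857 and -0.974 in *Myh9*-deficient libraries. This sign change held in all 6 libraries, with a difference of -1.66. The sign depends on the lengths used, 7055 bases for *Irf8* and 3187 for *Gfi1*. By recovered reads, *Irf8* stayed above *Gfi1* in every cKO library (1751 to 2036 against 1607 to 1686). The log2 ratio of *Irf8* to *Cebpa* was -0.978 ± 0.0417 in CTRL and -2.37 ± 0.037 in *Myh9*-deficient LSKs (SD, n = 3 each). *Gata1*, the erythroid and megakaryocyte factor that PU.1 antagonizes, rose from 33.0 ± 0.620 to 42.4 ± 1.06 FPKM (log2 fold change 0.35, limma, adjusted p = 2.9e-04). The log2 ratio of *Spi1* to *Gata1* was 1.68, 1.64 and 1.69 in CTRL and 0.997, 0.970 and 0.974 in *Myh9*-deficient libraries. *Spi1* remained above *Gata1* in every library, but by 0.98 instead of 1.67 on the log2 scale. The ratio of *Cebpa* to *Gata1* moved by -0.74, to 0.882 ± 0.0478. Of the 7 ratios, 6 did not overlap between the groups, and each of these 6 had an exact permutation p of 0.1, the smallest possible (0.117 adjusted over 7). Among single genes tested, 54% did not overlap in either direction, and the share among other pairs of genes was not computed. The ratios share genes such as *Irf8* and *Cebpa*, so they are not independent.

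**Figure D3:**
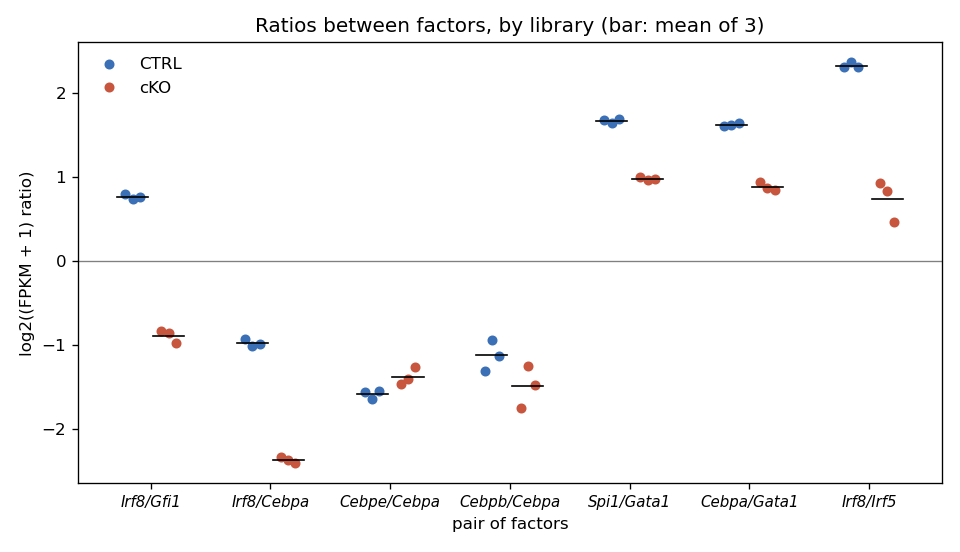
Log2 ratio of (FPKM + 1) between pairs of factors in each library, with a bar at the mean of the 3 libraries of a group. *Irf8*/*Gfi1* passes from above 0 in control (CTRL) to below 0 in *Myh9*-deficient (cKO) libraries, and only *Cebpb*/*Cebpa* overlaps between the groups.

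Close relatives of the 9 factors went both ways. Of 12 genes of the same families, 8 were tested, 5 were called lower and 2 higher (median of the log2 fold changes -0.19). *Irf1*, an activator of interferon responses, fell from 22.1 ± 1.33 to 15.3 ± 0.226 FPKM (log2 fold change -0.50), and *Irf9*, the DNA-binding part of the complex downstream of type I interferon receptors, by 0.38 on the log2 scale. *Gfi1b*, the paralog of *Gfi1* that acts in the erythroid and megakaryocyte lineages, rose from 31.7, 29.4 and 29.7 FPKM to 55.1, 54.25 and 58.3 FPKM (log2 fold change 0.86, limma, adjusted p = 2.8e-05). In control LSKs *Gfi1* and *Gfi1b* had about the same FPKM, 30.2 and 30.3, and in *Myh9*-deficient LSKs 27.7 and 55.9. The count of 5 called lower became 2 or 3 when any library other than cKO replicate 3 was left out, and the count of 2 called higher became 1. With GC and length trends removed 2 were called lower, and with no filter on low values 2 were lower and 3 higher. With quantile normalization, TPM, moderation without a trend or a replicate block, 1 was called higher.

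Partners and modulators of the 9 included some large changes. Of 14 listed, 12 were tested, 6 were called lower and 1 higher (median -0.19). *Trib1*, an adaptor that promotes degradation of C/EBPα, measured 3.21, 3.60 and 3.24 FPKM in CTRL and 0.718, 0.676 and 0.783 FPKM in *Myh9*-deficient libraries (log2 fold change -1.33, limma, adjusted p = 3.6e-05). *Jun*, a partner of PU.1 in monocytic gene activation, fell from 171 to 70.6 FPKM, and *Egr1*, which acts in macrophage commitment, from 33.1 to 12.7 FPKM. *Id2*, an inhibitor of E proteins, rose from 3.27 ± 0.540 to 9.17 ± 0.530 FPKM (log2 fold change 1.26, limma, adjusted p = 1.8e-04). *Cbfb*, the partner of RUNX1, and *Kdm1a*, the demethylase recruited by GFI1, did not pass the test (limma, adjusted p = 0.394 and 0.91).

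Genes of receptors, neutrophil granules and monocytes were mostly lower, where 20.6% of all genes tested were called lower and 19.9% higher. These lists are not target sets of the 9 factors and were chosen with earlier results of these data known. Of 9 cytokine and surface receptors, 8 were tested and 8 were called lower (median of the log2 fold changes -0.72). *Csf1r*, the M-CSF receptor gene that PU.1 activates, measured 24.3, 26.0 and 26.5 FPKM in CTRL and 8.12, 8.77 and 9.21 FPKM in *Myh9*-deficient libraries (log2 fold change -1.46, limma, adjusted p = 1.0e-05). *Fcgr3* (70.3 to 31.3 FPKM), *Il6ra* (5.70 to 2.92 FPKM) and the lipopolysaccharide co-receptor gene *Cd14* (21.2 to 3.67 FPKM) also fell. Every one of the 8 receptors had lower values in all 3 *Myh9*-deficient libraries than in any control library.

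All 12 genes of neutrophil granules and cytoplasm were tested, 10 were called lower and 1 higher (median -0.51). *Elane*, the neutrophil elastase gene, had 3102, 3130 and 3056 FPKM in CTRL and 1379, 1325 and 1336 FPKM in cKO libraries (log2 fold change -1.20, limma, adjusted p = 2.2e-06). *Prtn3* fell from 2008 to 1046 FPKM, *Lyz2* from 230 to 133 FPKM and *Mpo* from 3331 to 1953 FPKM. *Lcn2* rose from 11.2 to 18.2 FPKM (log2 fold change 0.65), and *S100a8* did not pass the test (limma, adjusted p = 0.885). In the list of monocyte and dendritic cell genes, 7 of 10 were tested and 6 were called lower (median -1.08). *Ly6c2*, the gene of the monocyte antigen Ly6C, fell from 361 ± 18.9 to 131 ± 9.24 FPKM (log2 fold change -1.45) and *Cx3cr1*, the fractalkine receptor gene, from 3.87 to 1.30 FPKM. *Ctss* measured 32.6 and 33.4 FPKM and did not pass (limma, adjusted p = 0.638). *Batf3*, *Siglech* and *Itgax*, genes of mature dendritic cells, were below the filter.

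Factors of other lineages were counted in the same way. Of 9 erythroid and megakaryocyte factors, all tested, 5 were called higher and 1 lower (median 0.14). *Klf1*, the erythroid Krüppel-like factor, rose by 0.50 on the log2 scale to 63.5 FPKM, and *Fli1* fell by 0.23. With a replicate block, or without CTRL replicate 3 or cKO replicate 1, 2 were called lower. This number was 3 with quantile normalization, with TPM and after correction for GC content and gene length. Of 10 lymphoid factors, 7 were tested, 3 were called lower and 1 higher (median -0.082). *Id3*, an inhibitor of E proteins, fell from 3.07 to 1.06 FPKM. *Ebf1* and *Pax5*, which define committed B cells, were below the filter, at under 0.05 FPKM on average in each group. Since poly I:C induces interferon, 10 interferon stimulated genes were looked at: 8 were tested, 4 were called lower and 0 higher (median -0.23). *Oas1a* fell from 34.1 to 26.1 FPKM, while *Isg15* measured 23.5 ± 3.89 and 21.8 ± 1.59 FPKM (limma, adjusted p = 0.542).

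**Figure D4:**
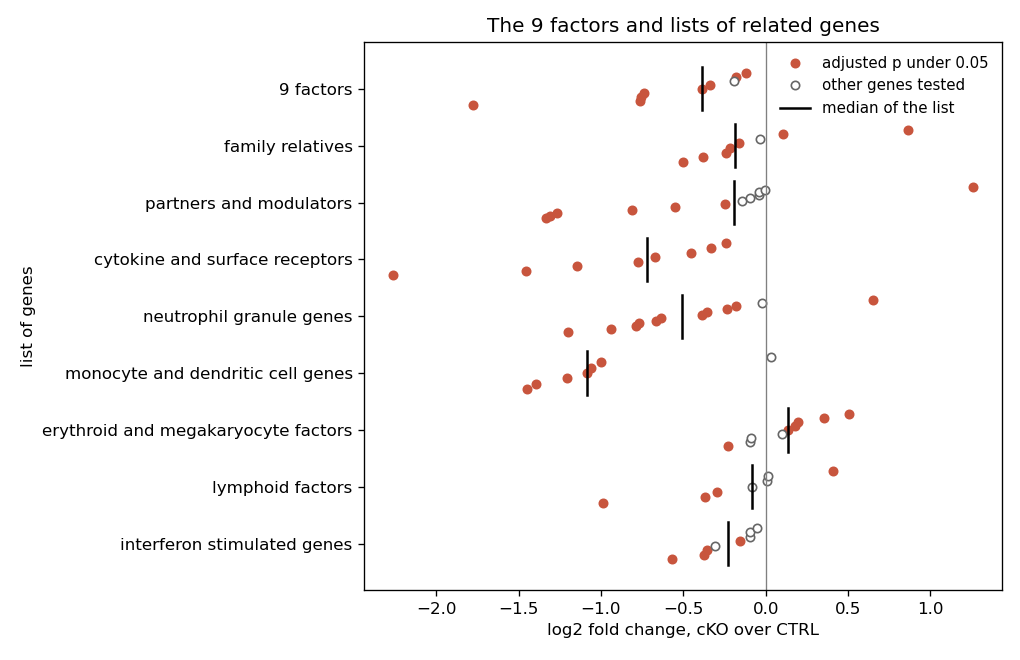
Log2 fold change (*Myh9*-deficient over control) of the 9 factors and of each gene tested in 8 lists of related genes, filled where the adjusted p was under 0.05, with a bar at the median of the list. The medians run from -1.08 in monocyte and dendritic cell genes to 0.14 in erythroid and megakaryocyte factors.

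Markers of other cells that a sort could carry over were read beside these results. Summed over the list, macrophage markers were at 26.6 to 28.9 FPKM in CTRL and 30.3 to 32.1 FPKM in *Myh9*-deficient libraries. Of 6, 5 were tested, with *C1qa*, *C1qb* and *C1qc* higher (*C1qa* from 1.04 to 4.24 FPKM) and *Adgre1* and *Cd68* lower. Of 4 B and plasma cell markers tested, *Jchain* (30.4 to 64.00 FPKM), *Mzb1* (4.58 to 8.99 FPKM) and *Cd79a* were higher and *Cd79b* did not pass the test, while *Ms4a1* was below the filter. The 6 erythroid markers summed to 15.8 to 18.2 and 49.98 to 64.03 FPKM, with all 4 tested higher, while *Slc4a1* and *Alas2* were below the filter. All 6 T and NK cell markers were below the filter, summing to 0.773 to 1.83 and 4.63 to 5.61 FPKM, and *Cd3e* had 0 reads in every control library. With no filter on low values, 5 of the 6 T and NK cell markers and 2 of the 6 genes of the lineage antibodies were called higher in cKO LSKs. Of 6 genes of the lineage antibodies, *Ptprc* was tested and called lower, a call that was lost without any one of the 6 libraries, and *Cd3e*, *Cd4*, *Cd8a*, *Itgam* and *Ly6g* were below the filter. The part of these cells in the changes of the 9 factors was not tested.

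Over the 6 libraries, the gene whose log2(FPKM + 1) followed *Irf8* most closely, among 7168 genes at 5 FPKM or more on average, was *Dnajb9* (Pearson r = 0.9998), an endoplasmic reticulum chaperone gene that fell from 18.7 to 11.5 FPKM. *Myo1f*, a myosin of myeloid cells, was closest to *Spi1* (r = 0.9994), *Mpst* to *Cebpa* (r = 0.9991), *Hspa13* to *Cebpb* (r = 0.9985), *C1galt1c1* to *Cebpd* (r = 0.9993), *Srgn* to *Cebpe* (r = 0.9999), *Sumf1* to *Gfi1* (r = 0.9979), *Aim2* to *Irf5* (r = 0.9964) and *Tex2* to *Zeb2* (r = 0.9992). The points are 6 libraries in 2 groups, so any gene that differs cleanly between the groups correlates with one that does: 870 genes had r above 0.95 with *Irf8* and 29 with *Irf5*.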

How the data were processed

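RNA-seq libraries from 3 control and 3 *Myh9*-deficient LSK cell sets were compared. The authors deposited FPKM values, 1 column per library, with gene lengths, and the submitters' processing notes name HISAT2 2.0.5 and mm10. The counting program is not given in the sources used here. Gene coordinates of the 9 factors equal those of GENCODE M21 (GRCm38). The labels give 2 doses of poly I:C and the paper's methods a different number.

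Reads behind each value were recovered from FPKM and gene length, and 100% of values came out whole (within 0.05 reads). FPKM does not suit a count model, so limma 3.58.1 (R 4.3.3; lmFit, eBayes with a trend) on log2(FPKM + 1) was the test, two-sided, for genes at 1 FPKM or more on average, with Benjamini-Hochberg adjustment. A fold change on this scale understates that of low genes. The test was tried on simulated data with known changes first. Ratios were tested by exact permutation (scipy 1.17.1). Read numbers may carry amplification noise beside counting error, since reads had no molecular identifiers.

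The 9 factors and the lists were chosen with earlier results of these data known. Named were the 9 factors, *Myh9*, up to 4 called and 2 uncalled genes of a list, both genes of each ratio and the closest gene of each factor by correlation. *Lcn2*, overlapping genes, genes below the filter and marker genes were named after their values were seen. *Ddit3* stands on 2 rows and was left out. The summed level of the B and plasma cell markers is not reported here. Promoters came from RefSeq (GRCm38.p6). Alternatives were a pseudocount of 0.1, no filter or 5 FPKM or more on average, quantile normalization, median of ratios, TPM, moderation without a trend, voom, a replicate block, removal of trends with GC content and length, and leaving out each library.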

Additional observations from a re-analysis of the deposited data

How the results depend on the processing

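The count of 8 factors called lower was 7 to 9 when 1 library was left out, and 0 were called higher under any alternative. The 9 log2 fold changes were negative under all alternatives, with *Irf8* from -1.84 to -1.705. *Gfi1* lost its call without CTRL replicate 2 (-0.12, adjusted p = 0.0523), and *Irf5* gained one without cKO replicate 3 (-0.28, adjusted p = 0.00952), by limma in both cases. *Zeb2* was not tested with a mean of at least 5 FPKM, which left 7 called. Replicate numbers are shared by the groups. Deviations of same-numbered libraries from their group means correlated at -0.026 to -0.0046, so no shared deviation was detected. With 3 libraries per group, this check cannot settle whether they were paired. With the replicate block, 8 factors were called lower, and 2044 genes were called lower and 2063 higher against 2378 and 2295 without it. The difference in the *Irf8* to *Cebpa* log2 ratio was -1.45 with a pseudocount of 0.1. This smaller pseudocount shrinks the change of *Irf8* less (log2 fold change -1.84 against -1.78) and leaves *Cebpa* nearly the same (-0.391 against -0.387). With GC and length trends removed the difference was -1.25, and that of *Irf8* to *Gfi1* was -1.58. These moves were larger than the SD of the replicates, and the cause of those after GC and length correction was not tested. Over the libraries left out, ratio differences ranged from -0.49 to -0.24 for *Cebpb* to *Cebpa*, from -1.41 to -1.37 for *Irf8* to *Cebpa* and from -1.68 to -1.61 for *Irf8* to *Gfi1*. Counts of called genes in the lists moved by over 1.5 times in 44 of 448 cases, most of them counts of 1 to 5. With 3 libraries per group, an exact permutation p cannot go below 0.1.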
